A study of Rattus norvegicus with 36 samples.

Results

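This account sets 4 mammary cancers of rats given gamma radiation and then MNU against 4 mammary cancers of rats given MNU alone, all 8 of them labelled H-ras nonmutated. These 8 arrays were chosen by their titles out of 36 in the series, which also covers spontaneous cancers, cancers after radiation alone or after the cooked-meat mutagen PhIP, H-ras mutated cancers and normal mammary tissue. The radiation plus MNU rats were female Sprague-Dawley rats irradiated over the whole body (1 Gy) at 7 weeks of age and injected 3 days later with MNU (N-methyl-N-nitrosourea, 40 mg/kg). The MNU rats had the same injection (40 mg/kg), with treatment also at 7 weeks of age, and no radiation. Both groups were fed a diet with 23.5% corn oil from 9 weeks of age. Nothing in the labels ties each cancer to a rat of its own, so the p-values measure the spread between samples. That spread is pooled over the groups of all 36 arrays unless stated. With whole pieces of tumour, fewer cells of a type and less RNA per cell cannot be told apart.

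MNU is an alkylating agent that puts methyl groups on DNA bases and is used to induce hormone-dependent mammary carcinomas in young female rats. Many MNU-induced rat carcinomas carry an activating H-ras mutation, and those compared here do not. Ionising radiation breaks DNA strands and is itself a mammary carcinogen in this strain. The comparison asks whether nonmutated cancers that arose after both agents differ in expression from those that arose after MNU alone.

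Arrays were single-colour, with 1 deposited intensity per probe set, on a scale common to all arrays. Values are given below either as intensities or on the scale log2(intensity + 42.8), where 42.8 is the 20th percentile of all intensities, and a log2 difference is radiation plus MNU minus MNU, with its standard error from limma. The array MNU nonmutated 4 stood apart from the other 7. Its 3'/5' signal ratio for the hexokinase control, a measure of RNA degradation that rises as RNA is cut, was 12.3, while the other 7 arrays had 2.09 to 2.56. Its median correlation with the other arrays was 0.886, and the next lowest was 0.919, for radiation plus MNU nonmutated 2. The mean log2 3'/5' ratio over 3 controls was 0.55 in radiation plus MNU and 0.75 in MNU (exact permutation test over 70 arrangements, two-sided p = 0.171). Part of the results are therefore given both with and without MNU nonmutated 4. A difference given without a second value may still rest on that array. The tissue label was checked against markers. The epithelial gene Epcam measured 10361.3 to 12683.7 in radiation plus MNU and 10290.5 to 12101.6 in MNU cancers, and the fat hormone Adipoq measured 64.4 to 108.0 and 30.1 to 95 in the same groups, where normal tissue had Adipoq at 1942.9 to 3784.5. Normal tissue had Epcam at 10110 to 15773.9, which covers both cancer ranges, so of these genes only Adipoq set the cancers apart from normal tissue.

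No gene passed the threshold of an adjusted p under 0.05. In the limma fit with Benjamini-Hochberg adjustment, 0 of 11772 genes were called (0.00%), and 11 genes tied for the lowest adjusted p, 0.252. At an unadjusted p under 0.05 there were 927 genes (7.87%), of which 396 had higher values after radiation plus MNU (3.36%) and 531 had lower values (4.51%). Where nothing differs, a share of about 0.05 of genes falls under that p. With only these 8 arrays in the fit, the counts were 248 higher and 341 lower, near that share. All 4 radiation plus MNU arrays lay above all 4 MNU arrays for 135 genes (1.15%) and below them for 240 (2.04%). Where nothing differs, a share of about 0.0286 of genes has no overlap, with both directions counted. A lack of overlap thus does not by itself set a gene apart. The median size of a log2 difference was 0.14, against a median standard error of 0.18. Without MNU nonmutated 4, the counts at an unadjusted p under 0.05 were 285 higher (2.42%) and 461 lower (3.92%). Of the 927 genes at that level with all arrays, 439 were still there, in the same direction, among the 746 without that array. The values that follow thus describe these 8 arrays, and none of the genes is called between the groups unless a test is named.

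The genes nearest to a call on the higher side included a protease receptor, a matrix protease and a tight junction scaffold. Plaur, the receptor that holds the urokinase plasminogen activator at the cell surface, had the smallest p on the higher side, on a probe set whose type can bind several related transcripts. Its intensities were 215.8, 282.1, 141.4 and 222.7 in radiation plus MNU cancers, against 107.4, 119.1, 118.3 and 24.1 in MNU cancers. The groups did not overlap, and the low 24.1 was that of MNU nonmutated 4. The log2 difference was 0.99 ± 0.21 (limma adjusted p = 0.252), and 0.68 ± 0.17 without that array. Mmp11, stromelysin-3, a protease made mostly by stromal cells in carcinomas, had the larger difference. It measured 2311.1, 2482.1, 879.5 and 2814.2 in radiation plus MNU cancers, and 300.1, 297.3, 397.9 and 237.7 in MNU cancers. Every radiation plus MNU value was more than double the highest MNU value, a log2 difference of 2.52 ± 0.63 (limma adjusted p = 0.317) and of 2.42 ± 0.70 without MNU nonmutated 4. Mmp2, the gelatinase of stromal cells, was the third member of the list of matrix proteases and inhibitors with every radiation plus MNU array above every MNU array, with a difference of 0.71 ± 0.34 (unadjusted p = 0.0488, and 0.106 without MNU nonmutated 4). Thus 3 of 14 measured members of that list did so, beside 1.15% of all genes.

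Of these 3 genes of matrix breakdown, 2 had an entry in the RefSeq promoter table. Their promoters are shown because both genes separated the groups. Each runs from 250 bases before the gene start to 50 bases after it, build GRCr8, plus strand, and capitals mark each match to the AP-1 element TGANTCA or the GC box GGGCGG on either strand.
Plaur, chr1:89181113-89181412: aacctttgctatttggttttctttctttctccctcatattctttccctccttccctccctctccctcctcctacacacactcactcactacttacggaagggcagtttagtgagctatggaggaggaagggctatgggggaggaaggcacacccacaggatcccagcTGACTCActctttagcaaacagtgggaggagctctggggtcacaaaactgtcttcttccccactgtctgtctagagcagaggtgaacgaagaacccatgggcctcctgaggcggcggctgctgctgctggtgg
Mmp11, chr20:12730034-12730333: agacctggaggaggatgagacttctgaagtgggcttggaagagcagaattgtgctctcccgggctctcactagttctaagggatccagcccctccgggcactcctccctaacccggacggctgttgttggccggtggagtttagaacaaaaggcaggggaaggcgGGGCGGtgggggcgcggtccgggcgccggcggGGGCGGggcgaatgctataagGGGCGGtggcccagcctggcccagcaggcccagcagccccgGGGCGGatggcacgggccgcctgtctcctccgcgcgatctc
The Plaur promoter held 1 AP-1 match and 0 GC boxes, and the Mmp11 promoter held 0 AP-1 matches and 4 GC boxes. Of all 33469 promoters of 300 bases, 7.33% held an AP-1 match and 33.1% a GC box. The 2 motifs do not overlap each other, and a match describes the sequence only.

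Tjp3 encodes ZO-3, a scaffold beneath tight junctions. It measured 480.9, 371.7, 565.3 and 490.8 in radiation plus MNU cancers, and 276.9, 261.1, 278.2 and 189.1 in MNU cancers. The groups were apart, with a log2 difference of 0.82 ± 0.18 (limma adjusted p = 0.252). Slc48a1, a heme transporter of endosomes and lysosomes, had intensities of 965.6, 1254.7, 948.9 and 1123.2 in radiation plus MNU, against 681.9, 743.7, 609.9 and 629.7 in MNU (0.65 ± 0.14). Nod1, an intracellular sensor of bacterial cell wall fragments, had 329.1, 460.3, 354.3 and 309.5, against 239.4, 210.8, 227.8 and 205.3 in MNU (0.61 ± 0.14). The SDs within the groups were 0.09 to 0.23 on the log2 scale for Slc48a1 and Nod1. The standard errors rest on the spread within all groups of the series, not on these SDs alone. Sdc4, a heparan sulfate proteoglycan of the cell surface, was bright on every array and differed by 0.42 ± 0.10. Atp6v1c1, a subunit of the proton pump that acidifies lysosomes, differed by 0.48 ± 0.12, and its groups overlapped. Pnpla2, the lipase that starts the breakdown of stored fat, measured 2560.0, 1836.0, 1847.2 and 3032.9 in radiation plus MNU cancers and 1052.1, 1287.4, 1587.6 and 909.5 in MNU cancers, 0.91 ± 0.22. Mamdc2 lay near the detection floor in MNU cancers, at 19.9, 3.5, 67.2 and 4.4, and at 133.2, 125.6, 77.2 and 499.8 in radiation plus MNU cancers. Its difference of 1.75 ± 0.41 depends on the added constant for that reason.

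**Figure D1:**
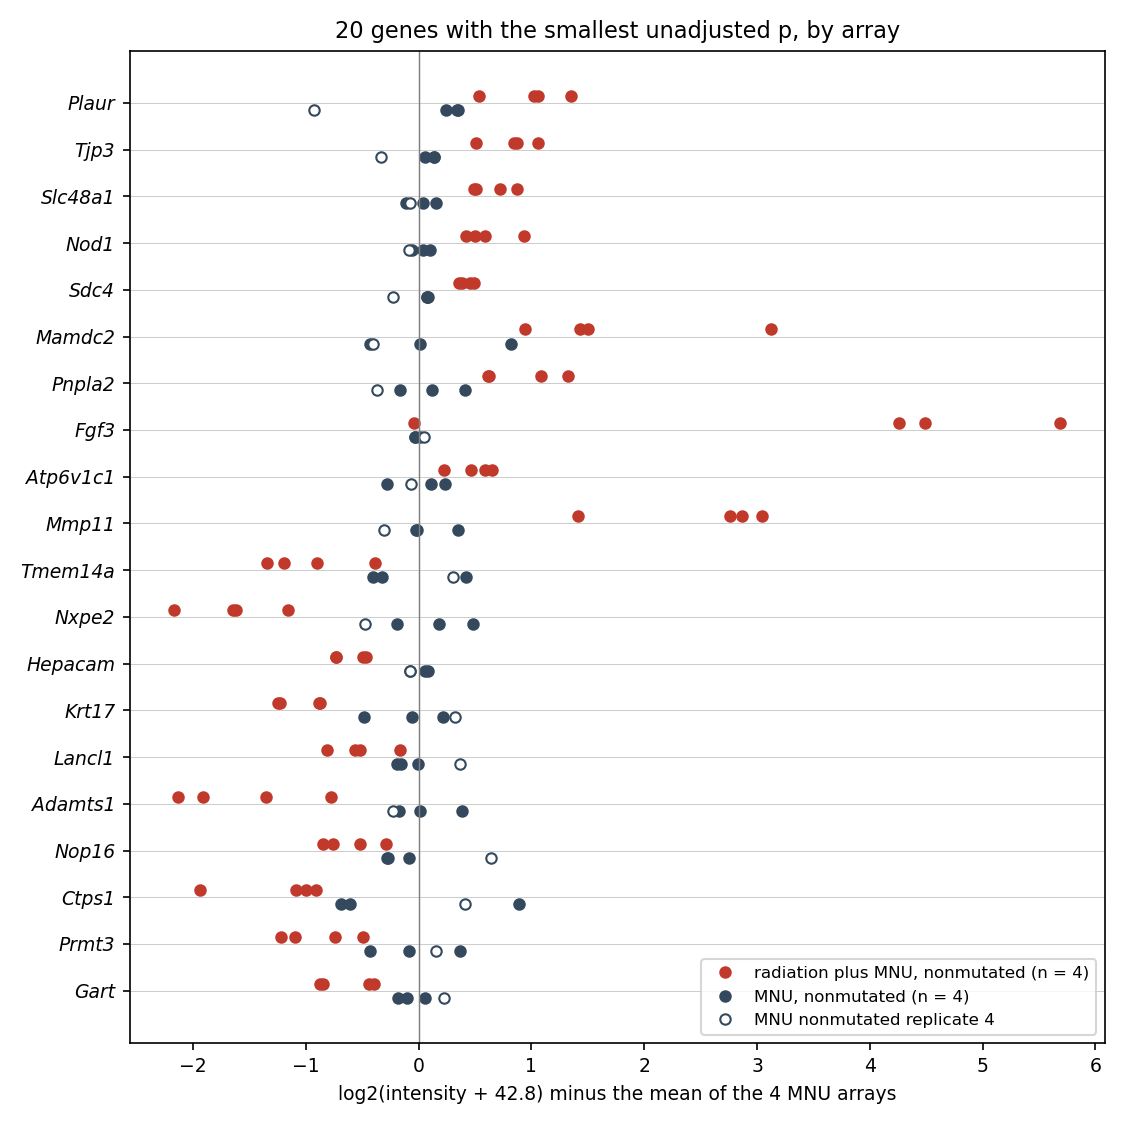
The 20 genes with the smallest unadjusted p, 10 higher (top) and 10 lower, with 1 point per array. The x axis is log2(intensity + 42.8) minus the mean of the 4 MNU arrays, red for radiation plus MNU, dark for MNU, and an open circle for MNU nonmutated 4. Fgf3 has 3 radiation plus MNU arrays far to the right and 1 among the MNU arrays.

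Fgf3 had an on-or-off pattern. This fibroblast growth factor is one of the genes that mouse mammary tumour virus switches on in mice. Its intensities were 1062.2, 5.1, 2492.7 and 897.5 in radiation plus MNU cancers, against 6.8, 5.3, 5.2 and 8.1 in MNU cancers. Thus 3 of 4 radiation plus MNU cancers had signal and 1 was at the level of all 4 MNU cancers. The fitted log2 difference was 3.60 ± 0.88 (limma adjusted p = 0.265), with an SD of 2.51 in radiation plus MNU and 0.04 in MNU. Leaving out radiation plus MNU nonmutated 2, the array without signal, gave 4.81 with an adjusted p of 0.00656, the only call in the main contrast when single arrays were left out. Since the array left out is the one that went against the difference, this call adds no support to it. Elsewhere in the series, Fgf3 exceeded 125.8, the 40th percentile of all intensities, in 2 of 3 spontaneous cancers and 1 of 3 nonmutated PhIP cancers. It did so in 0 of 4 cancers after radiation alone, 0 of 5 mutated radiation plus MNU cancers, 0 of 5 mutated MNU cancers, 0 of 4 radiation plus PhIP cancers, 0 of 1 mutated PhIP cancer and 0 of 3 normal tissues. Ccnd1, the gene of cyclin D1, did not share this pattern, at 5126.8, 2467.7, 4233.1 and 5656.0 in radiation plus MNU cancers and 8008.9, 6682.5, 7027.9 and 5204.1 in MNU cancers, a difference of -0.67 ± 0.27 (unadjusted p = 0.021).

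**Figure D2:**
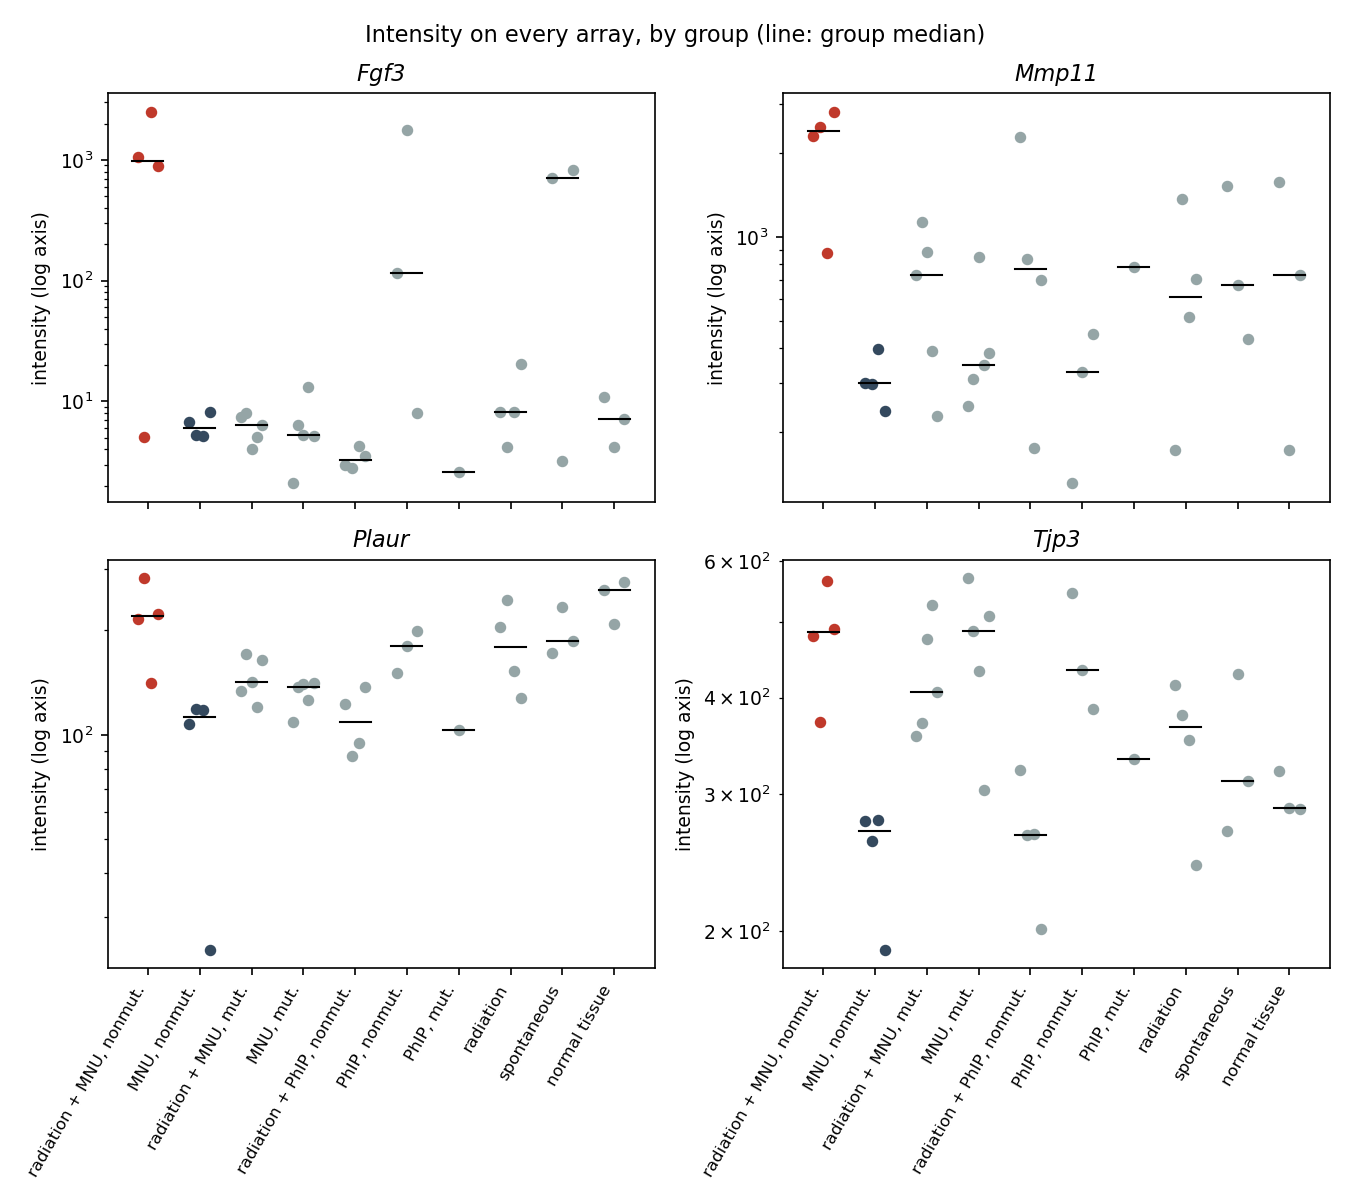
Intensity (log axis) of Fgf3, Mmp11, Plaur and Tjp3 on all 36 arrays, grouped by cause and H-ras label, with 1 point per array and a line at the group median. Red points are radiation plus MNU nonmutated and dark points MNU nonmutated; for Mmp11, the red group has the highest median of all groups, 2396.6.

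On the lower side, Ctps1, which makes CTP, measured 1200.5, 607.0, 1128.7 and 1283.1 in radiation plus MNU cancers, against 1500.5, 4560.8, 1586.4 and 3273.6 in MNU cancers. No arrays overlapped, and MNU 2 and 4 were the high ones, with a difference of -1.23 ± 0.32 (limma adjusted p = 0.325). A second, dimmer Ctps1 probe set gave -0.04. Gart, an enzyme of purine synthesis, had 645.2, 630.6, 896.6 and 870.7, against 1108.7, 1243.5, 1048.7 and 1400.7 in MNU (-0.64 ± 0.16). Its second probe set gave -0.29. Nop16, a nucleolar protein of ribosome assembly, differed by -0.60 ± 0.15, and by -0.39 without MNU nonmutated 4, its brightest array at 4599.5. Prmt3, the arginine methyltransferase of a ribosomal protein, differed by -0.89 ± 0.23. For all 4 genes the 4 radiation plus MNU arrays lay below the 4 MNU arrays.

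Of the other genes with the smallest p on this side, Nxpe2 measured 348.1, 340.3, 223.6 and 493.9 in radiation plus MNU cancers, and 1002.9, 1317.8, 1629.4 and 820.0 in MNU cancers, a difference of -1.65 ± 0.38 (limma adjusted p = 0.252) that was -1.80 without MNU nonmutated 4. Its second probe set gave -0.84. Adamts1, a secreted protease that cleaves the proteoglycans of the matrix, had 2165.0, 817.4, 961.6 and 1436.0, against 3306.4, 3775.3, 4874.8 and 3190.2 in MNU (-1.54 ± 0.39). Both genes had groups that were clearly apart. Hepacam, an adhesion molecule of the immunoglobulin family, had 265.7, 272.0, 218.5 and 219.2 in radiation plus MNU and 369.9, 409.8, 418.4 and 369.8 in MNU (-0.60 ± 0.14), and -0.45 by its second probe set. Tmem14a (-0.95 ± 0.20) and Lancl1, a glutathione-binding protein (-0.52 ± 0.12), overlapped between the groups. For Lancl1, other probe sets gave -0.27 and 0.02.

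Larger differences with no overlap were found among genes whose spread was also larger. On the higher side these were Ccl6, a chemokine of rodents that draws myeloid cells, with 989.3, 2265.3, 598.3 and 1983.4 in radiation plus MNU and 82.7, 134.2, 417.0 and 325.2 in MNU (2.42 ± 0.69). Tmem150c followed with 1.82 ± 0.54, and Serping1, the inhibitor of complement C1, with 1.73 ± 0.60. Serping1 measured 3344.0, 4767.5, 2504.7 and 5132.0 in radiation plus MNU and 825.8, 1743.3, 1900.3 and 538.9 in MNU. On the lower side, Fcgbp, a mucus protein, measured 145.3, 145.3, 265.6 and 316.4 in radiation plus MNU and 933.2, 2993.1, 792.5 and 2097.6 in MNU (-2.60 ± 0.71). Krt6c, a keratin of stressed or stratified epithelium, had 73.6, 149.2, 122.4 and 96.7, against 782.1, 290.4, 839.5 and 1390.0 in MNU (-2.35 ± 0.74), and its second probe set gave -2.12. Ecrg4, which encodes the secreted peptide augurin, differed by -2.16 ± 0.65 and Mcpt8, a protease of basophils and mast cells, by -2.13 ± 0.69. Mcpt8 was dim in radiation plus MNU, at 2.7 to 93.7, against 147.6 to 1116.8 in MNU. The size of its difference thus depends on the added constant. For the water channel Aqp8, 1 array made most of the difference. Its MNU intensities were 127.6, 154.1, 524.2 and, in MNU nonmutated 4, 4864.9, where radiation plus MNU had 68.6 to 101.0. The Aqp8 difference was -2.08 with that array and -1.03 without it. Adjusted p-values of these 8 other genes, from limma, lay between 0.345 and 0.525.

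Gene lists for the tissue, the agents and the cell types of a tumour were then described by the counts of their members. None of the 413 measured entries in 33 lists passed an adjusted p under 0.05. The background is 3.36% of all genes higher and 4.51% lower at an unadjusted p under 0.05, with a median log2 difference of -0.02 over all genes. For groups that do not overlap, it is 1.15% of all genes above and 2.04% below. Named below are members with an unadjusted p under 0.05, at most 4 a list, and other lists are given by their medians. No list was tested as a set.

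Macrophage markers had more members at an unadjusted p under 0.05 than any other list when all arrays were used. All 14 measured members had higher means in radiation plus MNU cancers, 8 of 14 at that level, with a median difference of 0.64. The complement genes C1qc (0.98 ± 0.34, unadjusted p = 0.00765), C1qb (1.02 ± 0.40) and the scavenger receptors Cd163 (1.25 ± 0.49) and Mrc1 (1.11 ± 0.47) had the smallest p. C1qc measured 3070.0, 5392.2, 1768.0 and 4287.1 in radiation plus MNU cancers, against 1501.6, 2956.0, 1268.2 and 1413.0 in MNU cancers. Radiation plus MNU 2 and 4 were the high arrays, radiation plus MNU 3 lay inside the MNU range, and no member of the list separated the groups. The mean over the list was 10.53, 11.16, 9.97 and 11.12 on the log2 scale in radiation plus MNU cancers and 9.79, 10.55, 9.86 and 9.96 in MNU cancers. The count of 8 rested on single arrays. It was 2 without radiation plus MNU 2, 4 without radiation plus MNU 4, 1 without MNU 1, and 4 without MNU 3 or MNU 4. The median stayed between 0.44 and 0.92 when each of the 8 arrays was left out. T and NK cell markers had a median of 0.10, B and plasma cell markers of -0.06 and MHC class II genes of 0.22, none with a member under that p when all arrays were used. These medians rested on single arrays as well. The MHC class II median ran from -0.05 without radiation plus MNU 2 to 0.64 without radiation plus MNU 3, where 2 of 8 members were under that p, and was 0.00 without MNU 4. The T and NK cell median was -0.07 without MNU 4 and 0.25 without radiation plus MNU 3, where 3 of 13 members were under that p. The B and plasma cell median ran from -0.24 without radiation plus MNU 4 to 0.09 without radiation plus MNU 3.

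**Figure D3:**
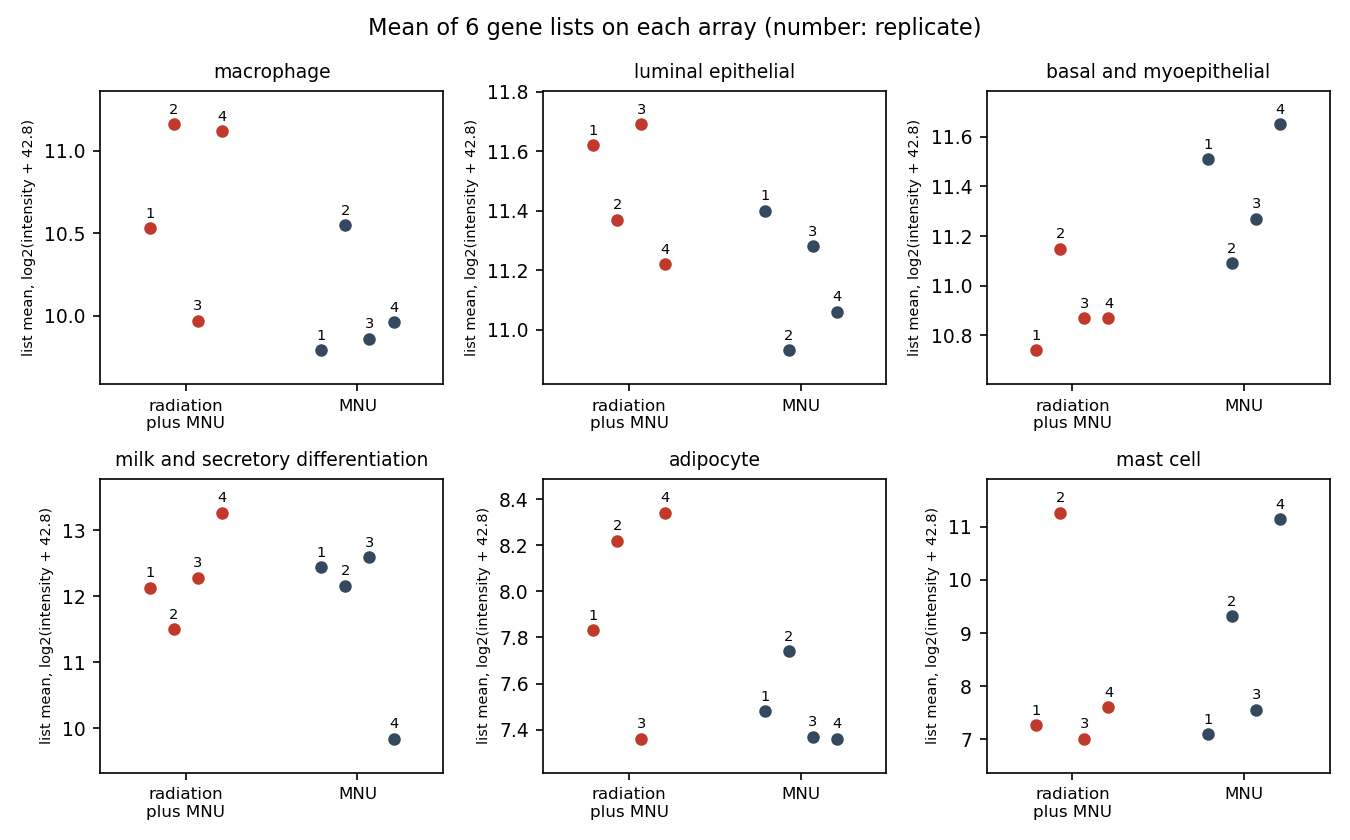
Mean of 6 gene lists on each array, in log2(intensity + 42.8), radiation plus MNU (red) left of MNU (dark), with the replicate number beside each point. In the milk panel MNU nonmutated 4 lies at 9.84, below all other arrays, and in the mast cell panel radiation plus MNU 2 (11.26) and MNU 4 (11.14) lie above the rest.

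The medians of the epithelial lists had opposite signs. Of 15 luminal markers, 13 had higher means in radiation plus MNU cancers, with a median of 0.31 and 2 members at an unadjusted p under 0.05. One was Gata3, the transcription factor that keeps luminal cells differentiated, at 3417.8, 4599.6, 3508.3 and 2540.6 in radiation plus MNU and 2747.8, 1997.8, 2553.8 and 1552.5 in MNU (0.66 ± 0.20, unadjusted p = 0.0023). The other was Elf3, an epithelial transcription factor (0.50 ± 0.23, and 0.29 without MNU nonmutated 4). The luminal count was 1 without radiation plus MNU 3 or MNU 2, 4 without radiation plus MNU 4 and 5 without MNU 4. Of 12 basal and myoepithelial markers, none had a higher mean, the median was -0.39, and 3 were under that p. Krt17, a keratin of basal and stressed epithelium, measured 1086.8, 831.0, 1081.4 and 840.9 in radiation plus MNU cancers, against 2375.6, 1945.4, 1444.2 and 2553.2 in MNU cancers. Those groups did not overlap, with a difference of -1.06 ± 0.25 (limma adjusted p = 0.252). The basal keratin Krt5 differed by -0.37 ± 0.17 and the galectin Lgals7 by -0.74 ± 0.36. The basal count was 1 without radiation plus MNU 3 or MNU 1. Without MNU 4, MNU 1 or radiation plus MNU 1, 2 of the 12 basal markers had higher means.

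Milk genes had a median of 0.84, and 2 of 8 were under that p, Lalba (1.29 ± 0.51) and the casein Csn3 (0.87 ± 0.42). Both were low in MNU nonmutated 4, with Lalba at 644.0 and Csn3 at 1436.7, where the other 3 MNU cancers had 3823.4 to 12404.8 and 14280.3 to 15955.4. Without it the milk median was 0.08, 0 of 8 members were under that p, and the Lalba difference was 0.40. With all arrays, the 1 milk gene with a lower mean differed by -2.26. Without radiation plus MNU 4, 1 milk gene was higher and 1 lower under that p. Hormone response genes had a median of -0.05 with 2 of 12 lower, and in both the groups did not overlap. Greb1, an oestrogen receptor target, measured 245.1, 97.3, 293.6 and 41.1 in radiation plus MNU cancers and 627.4, 489.9, 735.3 and 574.1 in MNU cancers (-1.81 ± 0.52, unadjusted p = 0.00154). Stat5a, the transcription factor that carries the prolactin signal, measured 2455.9, 1704.1, 2457.5 and 2374.1, against 2831.6, 4235.7, 3223.9 and 3620.6 in MNU (-0.62 ± 0.17, unadjusted p = 0.00106). The receptors themselves did not reach that level. Pgr, the progesterone receptor, was at -0.84 (unadjusted p = 0.118), Prlr, the prolactin receptor, at 0.54 (0.305), and Esr1, the oestrogen receptor, which was dim on all 8 arrays, at -0.04 (0.927).

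RAS-MAPK output was described because H-ras acts through it and these cancers lack the mutation. Of 17 members, 13 had lower means, the median was -0.38, and 4 were lower and 1 higher at an unadjusted p under 0.05. The feedback phosphatase Dusp5 (-0.51 ± 0.18) and the feedback inhibitor Spry2 (-0.66 ± 0.24) had groups that did not overlap, and Spry4 (-0.39 ± 0.14) had groups that did. Spry2 measured 1446.9, 802.9, 1447.5 and 1545.3 in radiation plus MNU and 2028.1, 2626.8, 2039.4 and 1586.5 in MNU. The early response gene Ier3 went the other way, at 3595.0, 3392.4, 6101.6 and 4483.4, against 1804.0, 2705.6, 2365.5 and 3048.1 in MNU (0.80 ± 0.31). Without radiation plus MNU 2, 2 members were lower at that level and the median was -0.10. Among EGF family genes, the ligand Btc (-1.06 ± 0.31) had groups that did not overlap and the receptor Erbb3 differed by 0.47 ± 0.23, while the list median was 0.00. Without MNU nonmutated 4, Erbb3 was at 0.30 (unadjusted p = 0.212) and the list had 0 higher and 2 lower.

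The lists for DNA damage had members on both sides. Of 14 p53 targets, 2 were higher and 4 lower at an unadjusted p under 0.05, with a median of -0.27. Phlda3, a target that restrains AKT, measured 10.59 ± 0.24 in radiation plus MNU and 11.28 ± 0.14 in MNU on the log2 scale (SD, n = 4 each), with no overlap and a difference of -0.68 ± 0.21. The stress gene Tp53inp1 differed by 0.91 ± 0.31, Zmat3 by -0.33 ± 0.14 and the nuclease Aen by -0.41 ± 0.18. Without MNU nonmutated 4, Tp53inp1 was at 0.56 (unadjusted p = 0.0657), Zmat3 at -0.25 (0.0925) and Aen at -0.32 (0.10), and p53 targets had 1 higher and 2 lower with a median of -0.12. Of 20 DNA repair genes, 2 were higher and 3 lower, with a median of -0.13. Apex1, the endonuclease of base excision repair, differed by -0.49 ± 0.14 with no overlap, and by -0.33 without MNU nonmutated 4. The ligase Lig1 differed by -0.43 ± 0.15 and the scaffold Xrcc1 by 0.35 ± 0.13. Mpg, the glycosylase that removes alkylated bases, was higher on every radiation plus MNU array than on any MNU array (0.47 ± 0.20, unadjusted p = 0.0253). Of 26 cell cycle genes none was under that p, and the median was -0.18, or -0.01 without MNU nonmutated 4.

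Stromal and metabolic lists were mixed. Matrix proteases and their inhibitors had 3 of 14 higher, the 3 genes named above, and a median of 0.39. Their differences ran from -1.9 to 2.52, with 11 members on the higher side and 3 on the lower. Without MNU nonmutated 4, 3 members were higher and 1 lower at an unadjusted p under 0.05. Fibroblast and matrix genes had a median of 0.13, with the receptor Pdgfrb at 0.64 ± 0.27 and the proteoglycan Vcan at -0.89 ± 0.32. Of 13 adipocyte markers 4 were higher, Fabp4 (1.52 ± 0.52), Cd36 (1.48 ± 0.60), Cfd (1.15 ± 0.50) and Lpl (0.71 ± 0.33, and 0.41 without MNU nonmutated 4), while the fat-specific Adipoq, Plin1 and Cidec stayed low in both groups. The mean of the adipocyte list ran from 7.36 to 8.34 in radiation plus MNU, from 7.36 to 7.74 in MNU and from 10.86 to 11.54 in normal tissue. The adipocyte count was 2 without radiation plus MNU 2 and 1 without radiation plus MNU 4. Fatty acid synthesis had 3 of 12 higher, Elovl5 (0.49 ± 0.19, no overlap), Thrsp (1.08 ± 0.50) and Me1 (0.79 ± 0.38, and 0.37 without MNU nonmutated 4). The count higher was 6 without radiation plus MNU 2 and 0 without radiation plus MNU 4. It was 1 without radiation plus MNU 1, radiation plus MNU 3 or MNU 4. The lowest member differed by -1.08. Without radiation plus MNU 4, MNU 1 or MNU 3, 1 member was lower under that p. Acute phase and complement genes had 3 of 8 higher, Serping1, Lbp (1.33 ± 0.63, and 0.30 without MNU nonmutated 4) and Saa3 (2.30 ± 1.09), and had 1 without radiation plus MNU 3, radiation plus MNU 4, MNU 2 or MNU 4. Other lists had 1 member each under that p. These were the endothelial Esam (0.41 ± 0.19, 1 of 10), the activin subunit Inhba (-1.14 ± 0.49, 1 of 12 TGF-beta targets), the mesenchymal factor Twist1 (-0.97 ± 0.36, 1 of 6) and the chaperone Hsph1 (-0.75 ± 0.34, 1 of 11). Inhba was at -1.78 without MNU nonmutated 4. Of 18 interferon response genes 1 was higher, Rsad2 (1.12 ± 0.46, and 0.78 without MNU nonmutated 4), beside a background of 3.36%. The interferon count was 0 without MNU 4 or radiation plus MNU 4, and 5 without radiation plus MNU 3.

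**Figure D4:**
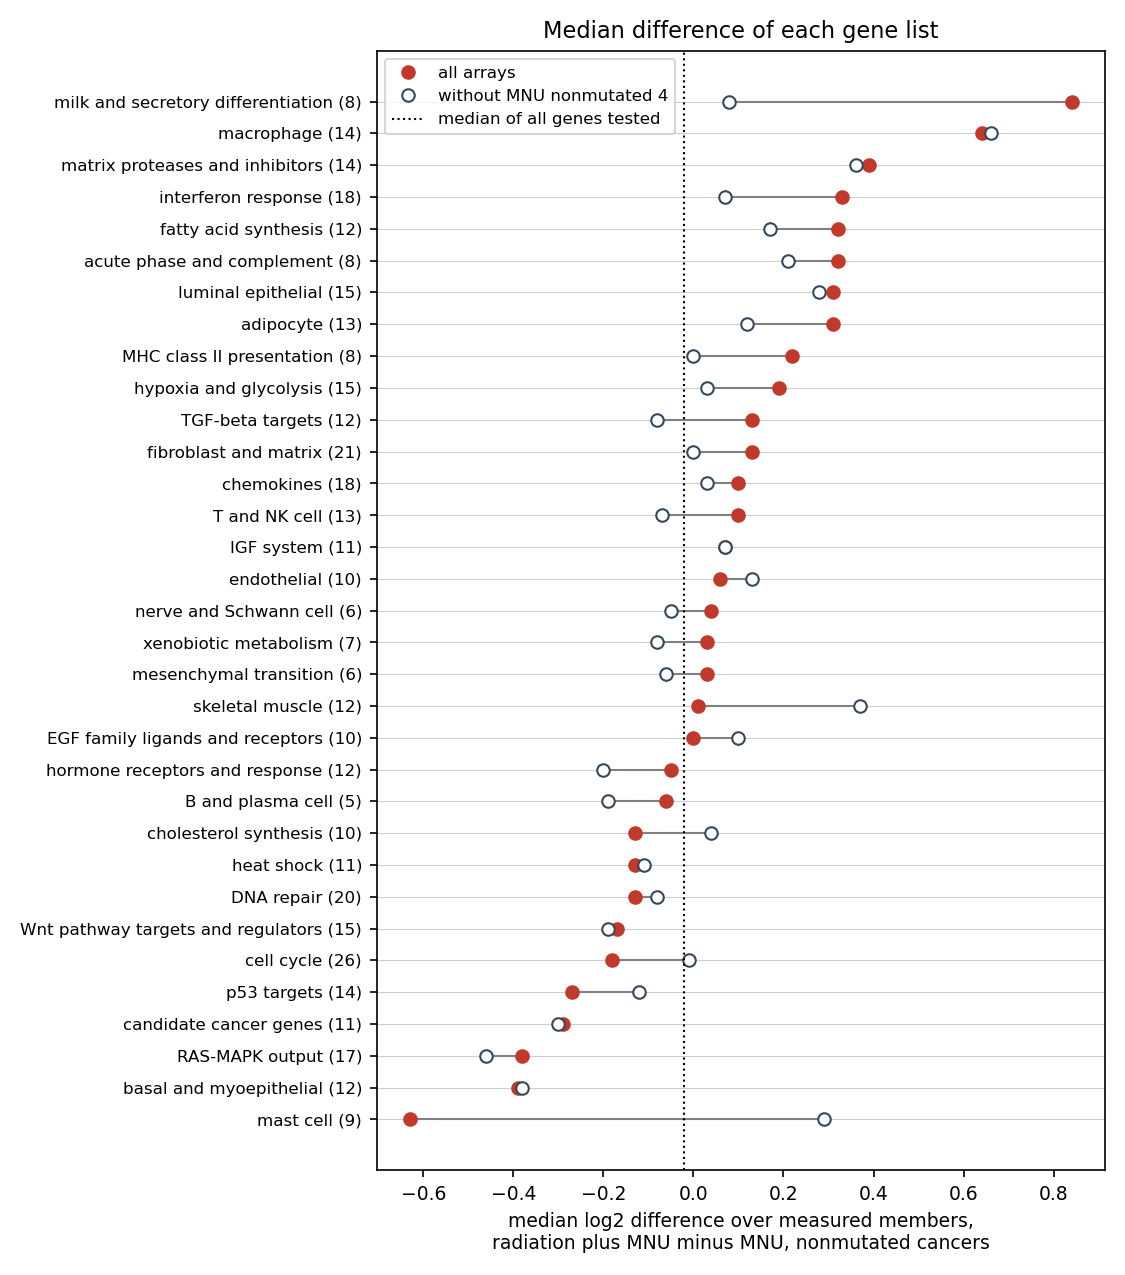
Median log2 difference of each of 33 gene lists (radiation plus MNU minus MNU, nonmutated cancers; measured members in brackets), with all arrays (red) and without MNU nonmutated 4 (open). The dotted line is the median of all genes, -0.02. Without that array the milk median is 0.08 and the mast cell median 0.29, while the macrophage median is 0.66.

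The nonmutated difference was then set beside that of added radiation in H-ras mutated cancers (5 radiation plus MNU and 5 MNU arrays) and in nonmutated PhIP cancers (4 radiation plus PhIP and 3 PhIP arrays). None of these arrays is shared with the 8 above, but both differences below use those 8. Within mutated cancers 711 genes had an unadjusted p under 0.05 (6.04%) and within PhIP cancers 1108 (9.41%), and in neither did a gene pass an adjusted p under 0.05 (0.00%). For the difference between nonmutated and mutated cancers, 0 of 11772 genes passed an adjusted p under 0.05 (0.00%) and 391 had an unadjusted p under 0.05 (3.32%). The 3 genes with the smallest p were Nod1, Hpgd and Hbb. Nod1 differed by 0.61 ± 0.14 in nonmutated and by -0.19 ± 0.12 in mutated cancers. Hpgd, the enzyme that inactivates prostaglandins, was at -2.32 ± 0.70 in nonmutated cancers and 1.70 ± 0.63 in mutated ones. Within the nonmutated groups Hpgd ranged widely, at 214.5, 106.6, 308.1 and 1328.2 in radiation plus MNU and 276.5, 2608.4, 1846.2 and 7050.5 in MNU. Without MNU nonmutated 1, Hpgd was the 1 gene called in this difference (adjusted p = 0.0353). That array had the lowest Hpgd value of the MNU group, 276.5, so leaving it out favours the call. Hbb, a haemoglobin chain whose probe set can bind several globin genes, was at 1.11 ± 0.54 and -1.74 ± 0.48. In mutated cancers Plaur was at 0.12 ± 0.19 and Mmp11 at 0.54 ± 0.57. Both were named for their values in the nonmutated comparison, so no test of the difference is given for them. The macrophage median, 0.64 in nonmutated MNU cancers, was 0.14 in mutated MNU cancers and 0.34 in PhIP cancers.

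For the difference between MNU and PhIP, 1 of 11772 genes passed (0.00849%) and 950 had an unadjusted p under 0.05 (8.07%). The gene was Tjp3, at 0.82 ± 0.18 with radiation in nonmutated MNU cancers and -0.70 ± 0.19 in PhIP cancers, a difference of 1.52 ± 0.26 (limma adjusted p = 0.0262). Its group medians were 485.8 in radiation plus MNU, 269.0 in MNU, 265.9 in radiation plus PhIP and 434.0 in PhIP cancers. All 4 radiation plus MNU cancers lay above all 4 MNU cancers. The call was lost with only the groups compared in the fit (adjusted p = 0.076), with RNA quality as a covariate (0.0727) and without radiation plus MNU 1, radiation plus MNU 3 or MNU 2 (0.0505 to 0.0561), while the difference stayed between 1.41 and 1.63. Next came Mogat1, an acyltransferase of triglyceride synthesis (-2.75, adjusted p = 0.0587), and Sema3b, a secreted semaphorin (-3.66, adjusted p = 0.0702). Sema3b had medians of 1076.8 in radiation plus MNU and 3061.7 in MNU cancers, against 2830.2 in radiation plus PhIP and 687.6 in PhIP cancers. Without MNU nonmutated 4, 12 genes passed, Mogat1, Sema3b and Tjp3 among them.

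**Figure D5:**
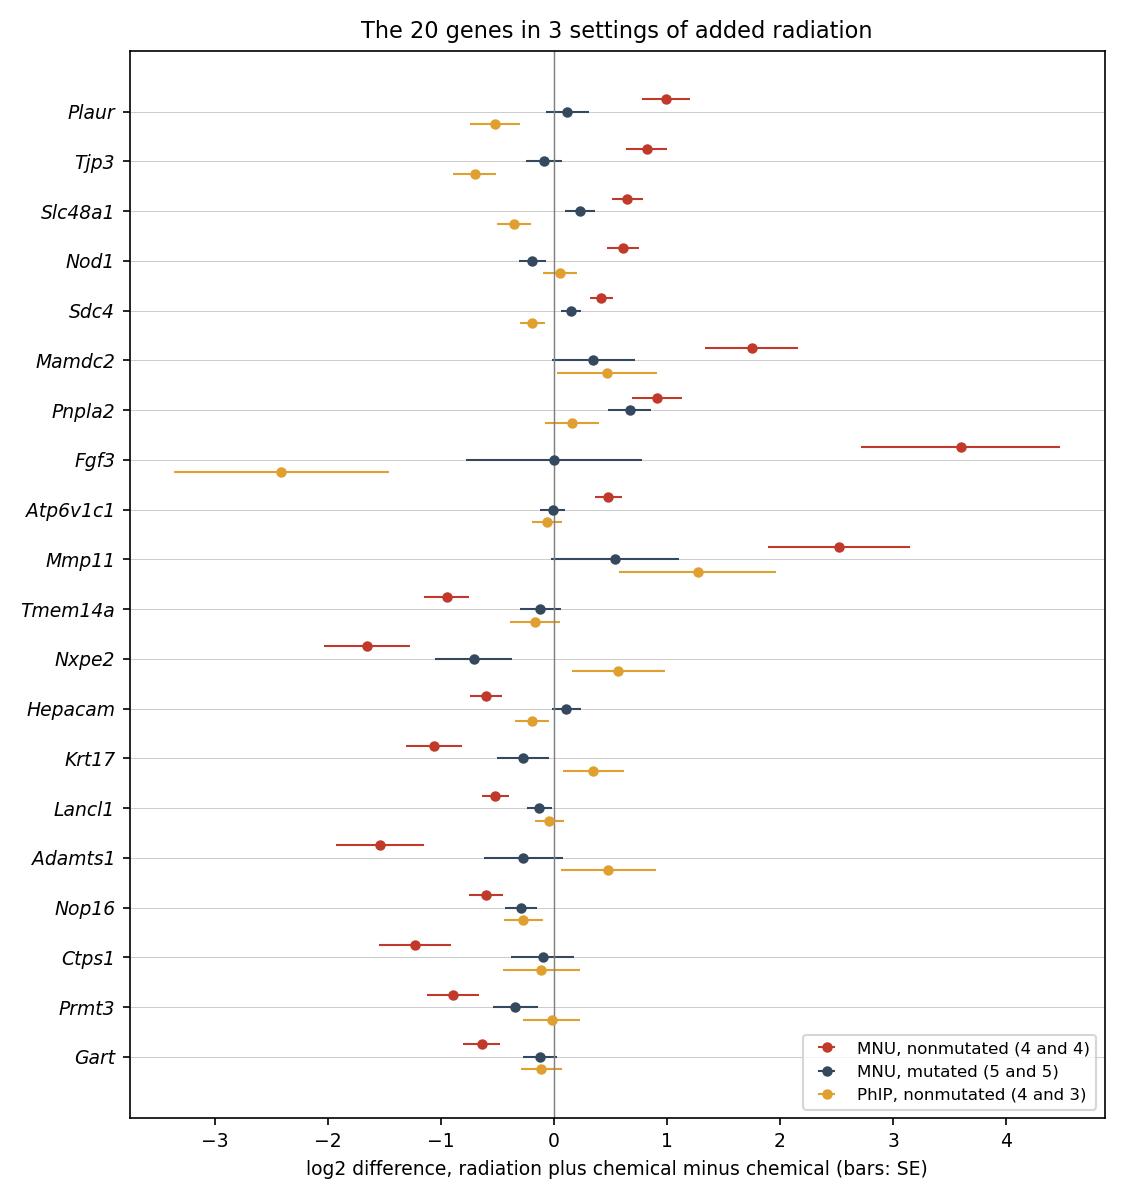
Log2 difference (radiation plus chemical minus chemical, bars are SE) of the 20 genes with the smallest p in nonmutated MNU cancers (red), in H-ras mutated MNU cancers (dark) and in nonmutated PhIP cancers (yellow). The red values chose these genes. Tjp3 lies at 0.82 in red, -0.09 in dark and -0.70 in yellow.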

How the data were processed

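The deposited table holds 1 linear intensity per probe set and array, for 31099 probe sets on 36 arrays. The authors' summary and scaling of the intensities were not given in the sources used here. The mean after leaving out 2% of probe sets at each end was 500.1 on every array. Of the probe sets, 20832 carried 1 gene symbol, 436 several and 9831 none, and 20764 had a gene identifier that RefSeq lists. Names come from the platform annotation. Intensities were transformed as log2(intensity + 42.8). A probe set was kept above 125.8 (40th percentile) on at least 3 arrays, and the brightest per symbol was taken, which left 11772 genes. With limma 3.58.1 (R 4.3.3), the model held 1 mean for each group over the 36 arrays, and p-values were adjusted over all genes by the Benjamini-Hochberg method. The fit was tested on simulated data. Groups come from the labels, and no array was left out of this fit.

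Genes named are the 10 with the smallest p in each direction, the 5 largest differences without overlap in each direction, the 3 with the smallest p in each difference between settings, and up to 4 members per list. Of the list members those with an unadjusted p under 0.05 are given, besides a few receptors and markers chosen after their values were seen. The comparison, the lists (481 entries, 413 measured) and the tests were chosen with earlier results of these data known. Replicate numbers did not pair the arrays: the correlation of deviations between same-numbered arrays was 0.11, -0.07, 0.18 and -0.19. Alternatives tried were another added constant, filter, normalization, probe set rule, set of arrays, variance model, covariate or block, and leaving out each array.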

Additional observations from a re-analysis of the deposited data

Results flagged for a closer look

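A sample far from the others of its group was found in 11 of the 152 groups of 4 values tested, where chance gives about 1 in 20. The array MNU nonmutated 4 was the one apart for 6 genes, each time the lowest of its group. Its log2 values were 6.06 for Plaur (next 7.23), 7.86 for Tjp3 (next 8.25), 12.53 for Sdc4 (next 12.83), 9.98 for Sema3b (next 11.52), 10.53 for Csn3 (next 13.81) and 8.14 for Inhba (next 10.51). Radiation plus MNU nonmutated 2 was apart for Stat5a (10.77, next 11.24) and Spry2 (9.72, next 10.54), where it was the lowest, and for Vcan (10.75, next 9.81), where it was the highest. Radiation plus MNU nonmutated 3 had the lowest Mcpt8 value (5.51, next 6.96), and radiation plus MNU nonmutated 4 the lowest Dusp5 value (9.17, next 9.63).

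Tjp3 was listed because its difference with radiation was not the same after MNU as after PhIP, by 1.52 on the log2 scale in the test of that difference.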

How the results depend on the processing

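In the comparison of radiation plus MNU with MNU, 0 genes passed the adjusted threshold under every alternative except 2: without radiation plus MNU nonmutated 2, and without both that array and MNU nonmutated 4 (chosen after seeing the data), 1 passed, Fgf3 (leaving out single arrays gave 0 to 1). Radiation plus MNU nonmutated 2 was the array of its group without Fgf3 signal, so leaving it out favours that call. Between nonmutated and mutated cancers, leaving out single arrays gave 0 to 1. Between MNU and PhIP, the count of 1 became 2 with the larger constant, 3 after quantile normalization, 4 with median centring, 6 without both arrays, 151 with array weights (whose fit did not converge), 0 to 12 without single arrays, and 0 with all probe sets, only the groups compared, only the 33 cancers, the replicate block or RNA quality as a covariate. The Tjp3 difference was 1.52 (adjusted p = 0.076) with the groups compared, 1.52 (0.056) with the cancers, 1.61 (0.138) with the replicate block, 1.45 (0.0727) with RNA quality and 1.41 to 1.63 without single arrays.

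At an unadjusted p under 0.05, the 396 higher and 531 lower genes became 802 and 823 with all probe sets, 248 and 341 with only the groups compared, 254 and 265 with the replicate block, and 225 and 331 with RNA quality. Where nothing differs, a share of about 0.05 of genes falls under that p. Out of 11772 genes, the counts with the groups compared, the replicate block or RNA quality lie near that share or below it. The main fit had 7.87%. Higher genes were 185 without both arrays. Without single arrays the counts were 285 to 474 higher and 461 to 651 lower. Genes whose groups did not overlap numbered 291 above and 394 below with all probe sets, and, since fewer arrays overlap less often, 463 and 727 without both arrays and 234 to 332 and 374 to 486 without single arrays. None of the 76 genes named by the rules above changed direction in the main comparison under these alternatives. No call other than those given changed under the replicate block. Some markers chosen outside those rules did change direction without MNU nonmutated 4. Cpa3 went from -0.63 to 0.39, Cma1 from -0.34 to 0.99, Tpsab1 from -0.9 to 0.26 and Acta1 from -0.24 to 1.1. Signal over background limits the dim genes, Mamdc2 and Fgf3 in MNU cancers among them, and 4 arrays a group limit all of them.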

Other observations

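Mast cell genes were high in single cancers of both groups. Cpa3, the carboxypeptidase of mast cell granules, measured 193.3, 7486.0, 164.2 and 304.3 in radiation plus MNU cancers, against 169.9, 1370.8, 274.1 and 7671.3 in MNU cancers. The chymase Cma1 was at 11.9, 4923.5, 15.9 and 167.7 in radiation plus MNU and 4.8, 321.1, 59.3 and 4845.9 in MNU. The tryptase Tpsab1 was high on the same arrays, with 3342.1 in radiation plus MNU 2 and 3928.1 in MNU 4. These 2 cancers were the highest for all 3 genes, MNU 2 came next, and 0 of 9 mast cell markers had an unadjusted p under 0.05.

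Muscle actin Acta1 was also high in single cancers, at 48.6, 387.2, 34.7 and 1128.7 in radiation plus MNU and 141.1, 81.6, 21.6 and 4689.9 in MNU, while the muscle kinase Ckm was above 125.8 only in radiation plus MNU 4 (587.1).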
